A study of Mus musculus with 16 samples.

Results

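The levels that messenger RNAs reached under the iron chelator dipyridyl (DP) were compared between mouse embryonic fibroblasts with and without the CH1 domain of the coactivators CBP and p300. The comparison uses 4 of the 16 arrays of the study, which held 4 lines under 4 treatments with 1 array each. These are the arrays of the lines labelled flox1 and flox2 (controls) and triCH1flox1 and triCH1flox2 after DP, and genes on the X and Y chromosomes were left out. The cells were primary, were taken from mid-gestation embryos (e14.5), received an adenovirus carrying the Cre recombinase at passage 3 and had grown at least 100-fold before treatment. Cre deletes conditional (flox) alleles. The genotype of flox1 was CBP +/flox and that of flox2 was p300 +/flox, so after Cre each control line is set to have lost an allele of 1 of the genes. The line triCH1flox1 was CBP CH1/flox;p300 CH1/CH1 and triCH1flox2 was CBP CH1/CH1;p300 CH1/flox, where CH1 stands for an allele with the domain deleted. In each, 3 of the 4 alleles thus lacked CH1 and Cre was to remove the remaining one. All 4 lines got ethanol first and 100 µM DP 30 min later, at normal oxygen, and were lysed after 3 h. In the vehicle arrays of the same lines the later addition was ethanol too. Each class held 2 lines of different genotype and each line is 1 culture, so the spread within a class is that between genotypes and p-values measure no more than that spread.

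Cells sense oxygen through prolyl hydroxylases that need iron. They mark the alpha subunits of the hypoxia-inducible factor (HIF) for destruction by the Vhl ubiquitin ligase. Chelation of iron stops these enzymes, so HIF alpha protein builds up in cells at normal oxygen, pairs with Arnt and binds short DNA motifs near its target genes. The transactivation domain of HIF alpha binds the CH1 domain of CBP and p300, which is also the docking site of Cited2 and other factors. HIF targets raise glucose uptake and glycolysis, secreted factors such as Vegfa, enzymes that modify collagen, and a hydroxylase that limits HIF itself.

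The 4 DP arrays had median signals of 143 and 128 in the controls and 119 and 119 in the triCH1 lines. Their pairwise correlations were 0.935 to 0.949. Background was 180 and 154 against 130 and 122, and 41.0% and 38.6% against 37.6% and 38.1% of probe sets had a signal of at least 200. The control arrays were thus the higher ones in each, and the bearing of this on low signals was not tested. Their ratios of 3' to 5' control signal were 0.935 to 1.17 for Gapdh and 1.37 to 1.44 for actin. The flox2 array had an 18S ribosomal RNA signal of 7428, against 981 to 1943 on the other 3. Digits of the array barcodes in the labels were taken here to mark 2 array series, a reading that was not tested. By them the array of triCH1flox1 was the only DP array of the second series. In vehicle, the flox1 array stood apart with a Gapdh ratio of 2.59, an actin ratio of 2.07, an 18S signal of 10718 and a background of 212. Crebbp, the gene of CBP, had DP signals of 1633 and 2069 in the controls and 1554 and 1880 in the triCH1 lines, and Ep300 had 1350 and 605 against 1945 and 771. The labels do not place these probe sets inside or outside the deleted stretches, so they are a partial check of the genotypes. Xist, the RNA of the inactive X, had signals of 157 and 246 in the controls and 3067 and 2795 in the triCH1 lines, and the Y-linked Eif2s3y had 1288 and 1453 against 48.5 and 8.90. The classes thus differ in sex pattern, and sex and CH1 cannot be told apart in any class difference given here. All 12 fibroblast markers had signals of at least 200 on 2 or more DP arrays, against 1 of 10 macrophage, 1 of 9 endothelial and 0 of 5 erythroid markers. It was 2 of 9 for epithelial, 2 of 6 for adipocyte, 4 of 8 for cartilage, 1 of 11 for skeletal muscle and 4 of 9 for neural markers. Summed signals of the fibroblast markers lay lower in both triCH1 lines than in both controls (230093 and 220310 against 208000 and 207049). So did those of cartilage (3191 and 2531 against 1481 and 1505), skeletal muscle (6635 and 9014 against 6003 and 5715), epithelial (2349 and 2322 against 1340 and 1767) and endothelial markers (928 and 954 against 509 and 713). The 1 skeletal muscle marker at that level was Acta1, with a mean signal of 6149, so it makes up most of that sum. With 1 of 9 endothelial markers at that level, their sum holds mostly low signals. The fibroblast sum is weighted to bright genes, with a highest single signal of 45603. Of the 12 fibroblast markers, 5 lay below both controls and 2, Dcn (1.02) and Twist1 (0.47 on the log2 scale), above both. Over all genes tested these shares were 17.6% and 22.3%. The sums of neural markers (8208 and 6415 against 5070 and 6984), adipocyte markers (1109 and 2158 against 863 and 1130) and macrophage markers (918 and 1139 against 881 and 1220) overlapped. In such bulk RNA fewer cells of a type and less RNA per cell cannot be told apart.

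Under DP, a small set of genes was lower in the cells without CH1. Most of them were HIF targets by lists that were chosen with earlier results of these data known. Of 9315 genes tested, 9 were lower in the triCH1 lines (0.0966% of those tested) and 0 were higher (0%), by limma at adjusted p under 0.05. The 9 are Egln3, Stc2, Ndrg1, Ankrd37, Ppp1r3c, Ero1a, Ier3, Lama4 and Plac8, and 7 of them, all but Lama4 and Plac8, stand in the lists of HIF targets. Their levels in the triCH1 lines were 2.26-fold (Ier3) to 7.65-fold (Ppp1r3c, from a low signal in 1 triCH1 line) below those of the controls. At an unadjusted p under 0.05, 403 genes were higher and 407 lower, and the median difference over all genes was 0.03 on the log2 scale. Leaving out a line left a class with 1 array and few calls. There was 1 lower gene without flox1 or without flox2, 2 without triCH1flox1 and 3 without triCH1flox2, with 1, 3, 0 and 0 higher. With 2 lines a class, an exact permutation test on 1 gene cannot go below p = 0.333, so the calls rest on the variance that limma shares across genes. Fold changes and differences are those of log2(signal + 50), which understates changes of low signals.

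**Figure D1:**
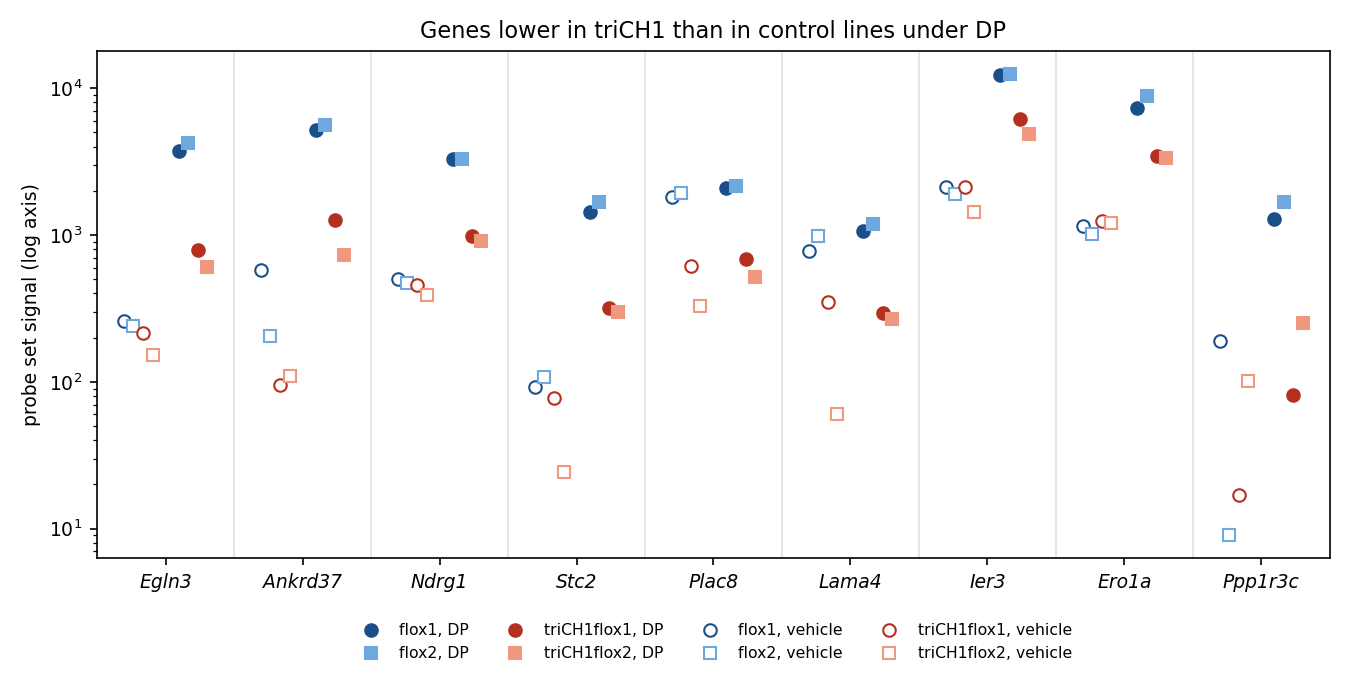
Probe set signal (log axis) of the 9 genes that passed, for each of the 4 lines under DP (filled) and in vehicle (open), controls in blue and triCH1 lines in red. Under DP both red points lie below both blue points in all 9, while for Ero1a the vehicle points of the triCH1 lines lie above those of the controls.

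HIF binds a core of ACGTG or GCGTG, and the stretch before the start site of some of these genes shows how such cores are placed. Windows of the 250 bases before the RefSeq start (build GRCm38.p6) were searched for ACGTG and GCGTG on both strands, where overlapping matches count separately. Of the 9 genes, 7 had a window and Ndrg1 and Lama4 had none in the table used. All 7 had at least 1 match in a window, though 1 of the 2 windows of Plac8 had 0. Over 32841 windows of this length 16.6% held ACGTG, 28.2% GCGTG and 38.6% either. These shares are per window and the count of 7 is per gene, so they are not measured alike. The windows shown are of Egln3, Ankrd37, Stc2 and Ero1a, which were lower in the triCH1 lines, and of Ldha, which had nearly the same level in both classes. They read 5' to 3' on the gene's strand, and capitals mark the matches, which on the other strand read CACGT and CACGC. Egln3 has 1 match (chr12:54203875-54204124, minus strand), Ankrd37 has 4 (chr8:45999851-46000100, minus strand), Stc2 has 2 (chr11:31370062-31370311, minus strand) and Ero1a has 3 (chr14:45318573-45318822, minus strand). Ldha has 5 in the first of its 2 windows (chr7:46845554-46845803, plus strand). A match describes letters only, and no binding was measured here.
Egln3: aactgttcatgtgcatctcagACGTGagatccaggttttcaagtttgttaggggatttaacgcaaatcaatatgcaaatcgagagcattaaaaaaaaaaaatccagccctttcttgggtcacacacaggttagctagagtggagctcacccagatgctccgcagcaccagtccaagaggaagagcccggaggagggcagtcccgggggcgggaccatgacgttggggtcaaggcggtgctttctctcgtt
Ankrd37: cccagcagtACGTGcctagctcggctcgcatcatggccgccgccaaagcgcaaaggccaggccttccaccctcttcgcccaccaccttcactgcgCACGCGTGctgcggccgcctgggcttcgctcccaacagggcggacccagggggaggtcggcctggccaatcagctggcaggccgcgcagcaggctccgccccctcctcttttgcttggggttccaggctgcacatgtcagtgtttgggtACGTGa
Stc2: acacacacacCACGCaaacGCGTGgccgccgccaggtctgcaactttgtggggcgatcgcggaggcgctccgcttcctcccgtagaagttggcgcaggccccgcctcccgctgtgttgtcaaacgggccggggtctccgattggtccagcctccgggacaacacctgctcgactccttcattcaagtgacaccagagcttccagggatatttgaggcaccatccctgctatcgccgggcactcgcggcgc
Ero1a: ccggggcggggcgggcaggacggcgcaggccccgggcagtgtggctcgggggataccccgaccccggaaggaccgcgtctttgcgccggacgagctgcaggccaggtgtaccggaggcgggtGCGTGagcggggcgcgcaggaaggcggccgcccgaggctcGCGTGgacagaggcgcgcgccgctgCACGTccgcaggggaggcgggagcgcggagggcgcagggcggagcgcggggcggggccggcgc
Ldha: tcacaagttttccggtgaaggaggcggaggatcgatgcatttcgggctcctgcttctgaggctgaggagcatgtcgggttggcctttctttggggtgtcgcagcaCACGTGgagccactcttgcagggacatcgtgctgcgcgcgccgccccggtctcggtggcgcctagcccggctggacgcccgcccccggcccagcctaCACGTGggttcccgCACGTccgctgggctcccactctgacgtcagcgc

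The feedback arm of oxygen sensing held the smallest p. Egln3 encodes the prolyl hydroxylase PHD3, itself a HIF target. Its DP signals (probe set 1418649_at, chromosome 12) were 3757 and 4244 in flox1 and flox2 and 797 and 609 in triCH1flox1 and triCH1flox2. The classes were far apart and the lines within each were close. The mean was 4000 ± 344 (SD, n = 2) in the controls and 703 ± 133 in the triCH1 lines, or 17.6% of the control level. The log2 difference was -2.44 (SE 0.204, 95% interval -2.90 to -1.97, adjusted p = 0.0112), or 5.41-fold, and a further probe set gave -2.41. In vehicle its signals were 259 and 239 against 214 and 152. Egln1, the hydroxylase PHD2, reached 4216 and 4287 in the controls and 4374 and 3421 in the triCH1 lines. These overlap, with a difference of -0.13 (95% interval -0.54 to 0.27). Vhl, the ubiquitin ligase subunit that recognises hydroxylated HIF, had 1613 and 2217 against 1112 and 1426 (-0.57, adjusted p = 0.552).

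Ankrd37, an ankyrin repeat protein induced by HIF, had DP signals of 5180 and 5590 in the controls and 1268 and 732 in the triCH1 lines (probe set 1436538_at, chromosome 8). The difference was -2.42 (SE 0.252, adjusted p = 0.0158), or 5.35-fold. Its vehicle signals were already lower in the triCH1 lines, at 95.6 and 109 against 582 and 204, and the vehicle value of flox1 comes from the array that stood apart. Ndrg1, a cytoplasmic protein tied to stress and differentiation, was the most even within classes. It had 3282 and 3295 in the controls and 986 and 911 in the triCH1 lines (probe set 1420760_s_at, chromosome 15). The difference was -1.74 (SE 0.181, adjusted p = 0.0158), or 3.35-fold, and 4 further probe sets gave -2.00 to -1.44. In vehicle Ndrg1 had 502 and 469 against 460 and 389, a difference of -0.18.

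Among secreted factors, the stanniocalcin gene Stc2 was low in both triCH1 lines. Stanniocalcins are glycoprotein hormones that act on calcium and phosphate handling and on protease inhibition. Stc2 signals were 1440 and 1689 in the controls and 319 and 299 in the triCH1 lines (probe set 1449484_at, chromosome 11). The difference was -2.17 (SE 0.207, adjusted p = 0.0158), or 4.49-fold, and its other probe sets gave -0.90 and -1.17. Its relative Stc1 had 1152 and 1445 against 632 and 615, without overlap, a difference of -0.99 that did not pass (adjusted p = 0.185). Adm, the gene of the vasodilator peptide adrenomedullin, had 6701 and 7807 against 3806 and 3894 (-0.90, adjusted p = 0.104). Vegfa, the angiogenic growth factor, had 3346 and 2344 in the controls and 2517 and 1747 in the triCH1 lines. Its classes overlapped, and the difference of -0.41 had a 95% interval of -0.96 to 0.15, which includes values near those of Adm as well as 0.

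Genes of glucose and glycogen handling spanned large class differences and hardly any. Ppp1r3c, which directs a phosphatase to glycogen and favours glycogen synthesis, had the largest difference of the 9 genes in the fit of all 4 arrays. That rank was lost to Ankrd37 (-2.80) and Egln3 (-2.62) without triCH1flox1, and to Ankrd37 (-2.25) at a pseudocount of 200, where Ppp1r3c had -2.23. Its signals were 1288 and 1684 in the controls and 81.4 and 251 in the triCH1 lines (probe set 1433691_at, chromosome 19). Since 81.4 lies under the signal of 200 used as the filter, its 11.2% of the control level and its difference of -2.94 (SE 0.374, adjusted p = 0.0398), or 7.65-fold, are rough. The triCH1 lines were far apart from each other, and the value was -3.54 without triCH1flox2 and -2.34 without triCH1flox1. Slc2a3, the glucose transporter GLUT3, had 1516 and 1209 against 309 and 448. The classes did not overlap, but the difference of -1.73 did not pass (adjusted p = 0.0592), and its other probe set gave -1.43. Pfkfb3, which makes the activator of phosphofructokinase, had 3091 and 3865 against 1147 and 1473 (-1.38, adjusted p = 0.0815). The more general transporter Slc2a1 (GLUT1) had 20209 and 21137 against 13990 and 13208, or 65.8% of the control level (-0.60, adjusted p = 0.104), and its other probe sets gave -0.83 and -1.03. Hexokinase 2 (Hk2) had 9325 and 8434 against 5791 and 4820 (-0.74, adjusted p = 0.185).

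A few glycolytic enzymes had class differences near 0. Ldha, lactate dehydrogenase A, had 20897 and 22843 in the controls and 18952 and 21996 in the triCH1 lines. These overlap, and the 95% interval of the difference of -0.10 was -0.36 to 0.16. Pgam1, phosphoglycerate mutase, had 12062 and 13167 against 12824 and 12687 (0.02, interval -0.25 to 0.28). Tpi1, triosephosphate isomerase, had 15735 and 18503 against 14821 and 17760 (-0.07, interval -0.38 to 0.23). Aldoa, an aldolase, lay a little lower at 20520 and 18502 against 14751 and 17431 (-0.28, adjusted p = 0.568). Pdk1, a kinase that inhibits pyruvate dehydrogenase, had 1686 and 2120 against 1889 and 1750, with a wider interval (-0.05, interval -0.50 to 0.39). Its other probe sets gave -0.07, -0.08 and -0.55. Of the 17 tested genes of glucose uptake and glycolysis, 0 passed, 11 had both triCH1 arrays below both controls and 0 had both above, and 15 had values under 0, with a median difference of -0.28. Among the 11 is the lactate exporter gene Slc16a3, with 2365 and 2636 against 1652 and 1962 (-0.46, adjusted p = 0.553). Over all genes tested 17.6% lay below both and 22.3% above both, with a median of 0.03. Pgk1, which the rule for named genes holds, is on the X chromosome and was not tested.

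Bnip3, a mitophagy receptor of the outer mitochondrial membrane, had 12480 and 12143 in the controls and 10192 and 9598 in the triCH1 lines. Its classes did not overlap although the triCH1 level was 80.4% of the control level (-0.31, adjusted p = 0.536). In vehicle it had 1021 and 868 against 1036 and 1093. The mitochondrial adenylate kinase Ak4 reached 3704 and 3912 against 3667 and 3651. Its difference of -0.06 had an interval of -0.42 to 0.30, so a gap as large as that of Ero1a lies outside it.

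**Figure D2:**
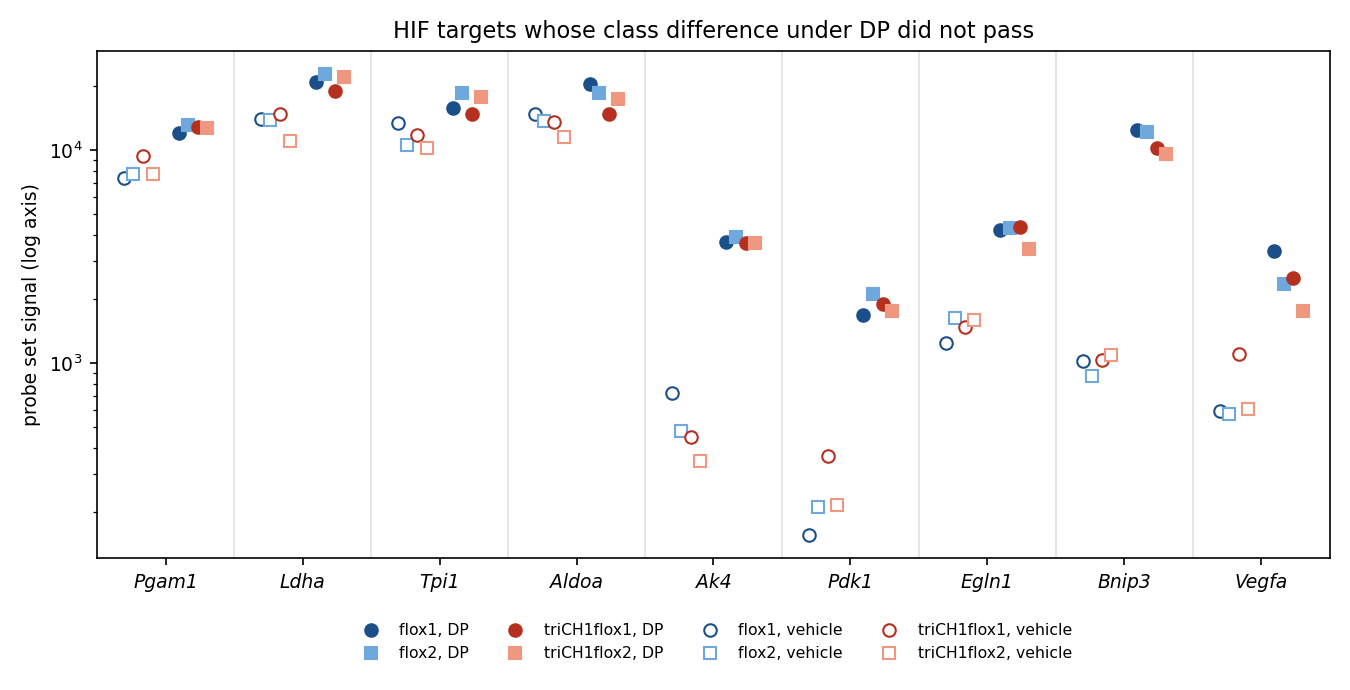
Probe set signal (log axis) of 9 HIF targets that did not pass, by line, under DP (filled) and in vehicle (open). For Pgam1, Ldha, Tpi1, Pdk1, Egln1 and Vegfa the control and triCH1 points overlap under DP, while for Aldoa, Ak4 and Bnip3 both triCH1 points lie below both control points.

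Ero1a passed among the HIF targets that act on proteins in the secretory pathway. It encodes the oxidase that drives disulfide formation in the endoplasmic reticulum and had 7319 and 8794 in the controls and 3455 and 3357 in the triCH1 lines (probe set 1449324_at, chromosome 14). The gap was wide against the spread in either class. The difference was -1.22 (SE 0.159, adjusted p = 0.0398), or 2.34-fold, and its other probe sets gave -0.98 and -1.20. In vehicle Ero1a had 1152 and 1011 in the controls and 1243 and 1215 in the triCH1 lines, so there the triCH1 lines were the higher ones (0.18, adjusted p = 0.863). The collagen prolyl hydroxylase subunits P4ha2 and P4ha1 had 6229 and 6815 against 3299 and 3724 (-0.89, adjusted p = 0.104) and 6622 and 6236 against 3951 and 4339 (-0.63, adjusted p = 0.282). Plod2, a lysyl hydroxylase of collagen, had 13474 and 9314 against 7464 and 6193 (-0.72, adjusted p = 0.345). For these 3 genes, chosen after their values were seen, the classes did not overlap, and none passed.

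Ier3, an early response gene that limits cell death, had DP signals of 12247 and 12528 in the controls and 6141 and 4844 in the triCH1 lines (probe set 1419647_a_at, chromosome 17). It reached 44.3% of the control level (-1.18, SE 0.153, adjusted p = 0.0398), or 2.26-fold less. In vehicle its classes overlapped, at 2116 and 1917 against 2134 and 1430. Ddit4, an inhibitor of mTOR signalling, had 8342 and 7706 against 5002 and 3494 (-0.93, adjusted p = 0.18). Hilpda, a protein of lipid droplets, had 2256 and 2550 against 874 and 1000, or 39.0% of the control level (-1.31, adjusted p = 0.0733). The cyclin G2 gene Ccng2 had 6233 and 6902 against 4132 and 3303 (-0.82, adjusted p = 0.185).

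The transcriptional repressor gene Bhlhe40 and the histone demethylase gene Kdm3a lay on opposite sides in the 2 conditions. Bhlhe40 had 4935 and 5467 against 3382 and 2666 under DP (-0.78, adjusted p = 0.231) and 888 and 688 against 1670 and 1076 in vehicle (0.74, adjusted p = 0.757). Kdm3a had 3489 and 3011 against 2118 and 1576 under DP (-0.81, adjusted p = 0.308) and 546 and 568 against 728 and 708 in vehicle (0.34, adjusted p = 0.772). Neither passed in either condition. Hmox1, heme oxygenase, had 3051 and 4735 against 1961 and 2669 under DP (-0.72, adjusted p = 0.49). Selenbp1 reached a signal of 200 only in the controls, with 472 and 518 against 94.2 and 110, and so passed the filter only through them, which fixed its direction.

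Over both lists, 64 HIF targets were tested of 72 listed, and 7 passed, all lower, against 0.0966% of all genes tested. The lists were chosen with earlier results of these data known, so these counts describe the lists and are no test of them. Most of the 64 targets lay below the control level by some margin. The triCH1 level was under 50% of control for 14, from 50% to 80% for 25 and at least 80% for 25, 4 of which lay above control. Both triCH1 arrays lay below both controls for 44 and above both for 1, Wsb1 (13 under 50% and 43 below both of the 63 targets without Selenbp1), against 17.6% and 22.3% of all genes. The median difference was -0.46, with -0.67 over the 47 targets outside glucose uptake and glycolysis. For 31 the 95% interval included 0, and for 7 (Mif, Pkm, Ldha, Lox, Tpi1, Ak4 and Pgam1) it lay within 0.5 of 0. Across these targets the triCH1 level ran from 11.2% of control for Ppp1r3c, with the low signal noted above, to 117% for Insig2.

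**Figure D3:**
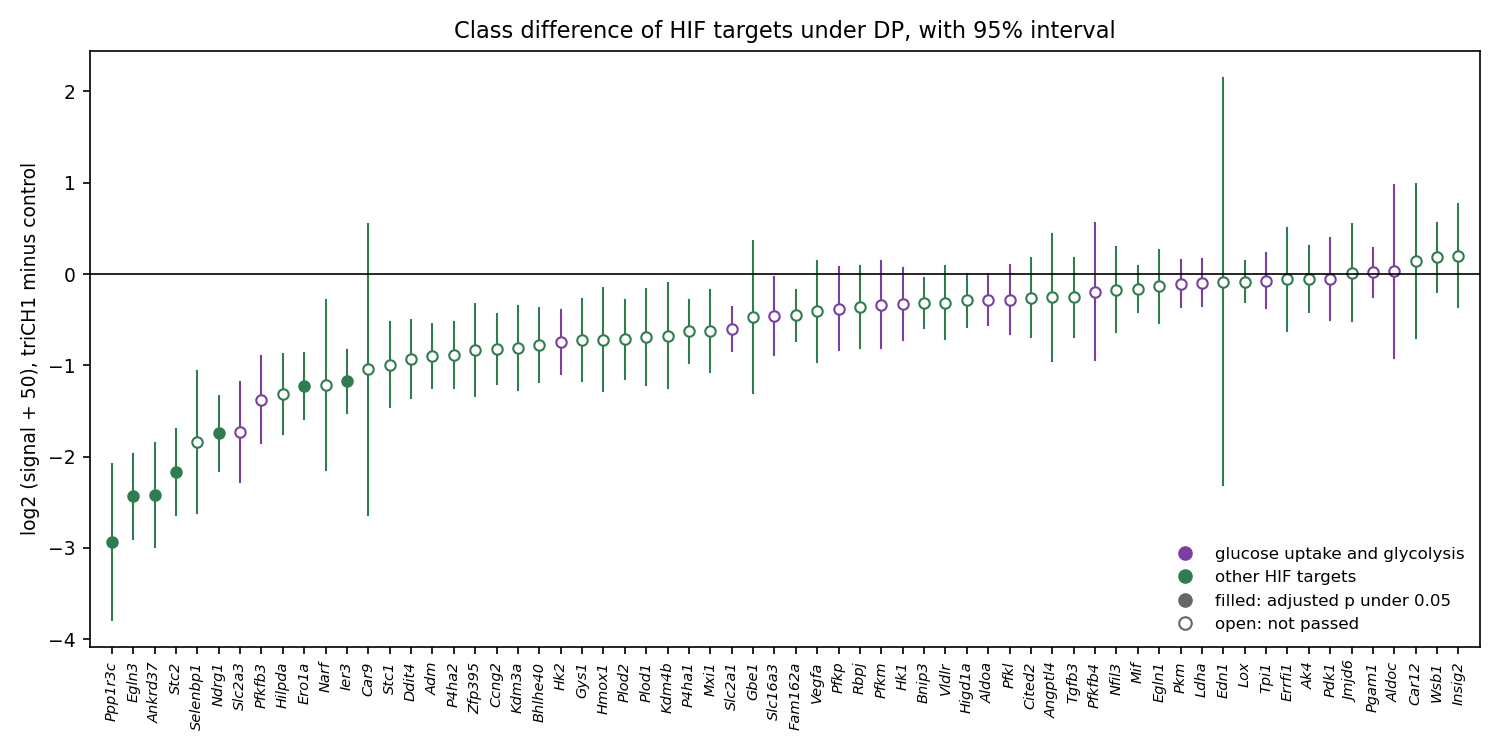
Class difference under DP (triCH1 minus control, log2 of signal + 50) of the 64 HIF targets in order, with 95% intervals from the fit; purple marks glucose uptake and glycolysis, green the others, and filled points passed. The order runs from Ppp1r3c at -2.94 to Insig2 at 0.20, and the filled points stand at the low end together with open ones such as Slc2a3.

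The same lines in vehicle show which of these gaps were there without DP. In vehicle 0 of 9315 genes passed in either direction (0%), with 262 higher and 319 lower at an unadjusted p under 0.05 (limma) and a lowest adjusted p of 0.289. Of the 64 HIF targets, 18 lay below both controls and 13 above both, against 18.4% and 19.6% of all genes, with a median of -0.11. Of the 44 that lay below both under DP, 15 did so in vehicle, 6 lay above both and 23 overlapped. The 6 were Selenbp1, whose place under DP the filter fixed, Ero1a, Zfp395, Kdm3a, Bhlhe40 and Bnip3.

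Whether a class difference under DP differed from that in vehicle was tested over the 8 arrays with a term for the line. Here 0 genes passed (0%), with 115 higher and 119 lower at an unadjusted p under 0.05. Egln3 had the smallest p, with a difference of -2.06 (SE 0.322, adjusted p = 0.16). Ndrg1 (-1.56) and Ero1a (-1.40) both had adjusted p = 0.447, while Lama4 (0.32) and Plac8 (0.18) had values near 0. So no gene can be called particular to DP from this fit. By the barcode digits all vehicle arrays were of the first series and the triCH1flox1 DP array of the second. In that line DP and series cannot be told apart, and the term for the line does not separate them. The flox1 vehicle array, which stood apart, is the only vehicle control when flox2 is left out. In a fit over all 16 arrays, 2 genes passed this test and 25 were lower and 5 higher under DP, with 7 of the 9 genes among the lower ones. Without triCH1flox1 6 genes passed this test, and without triCH1flox2 6, without flox1 1 and without flox2 8.

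**Figure D4:**
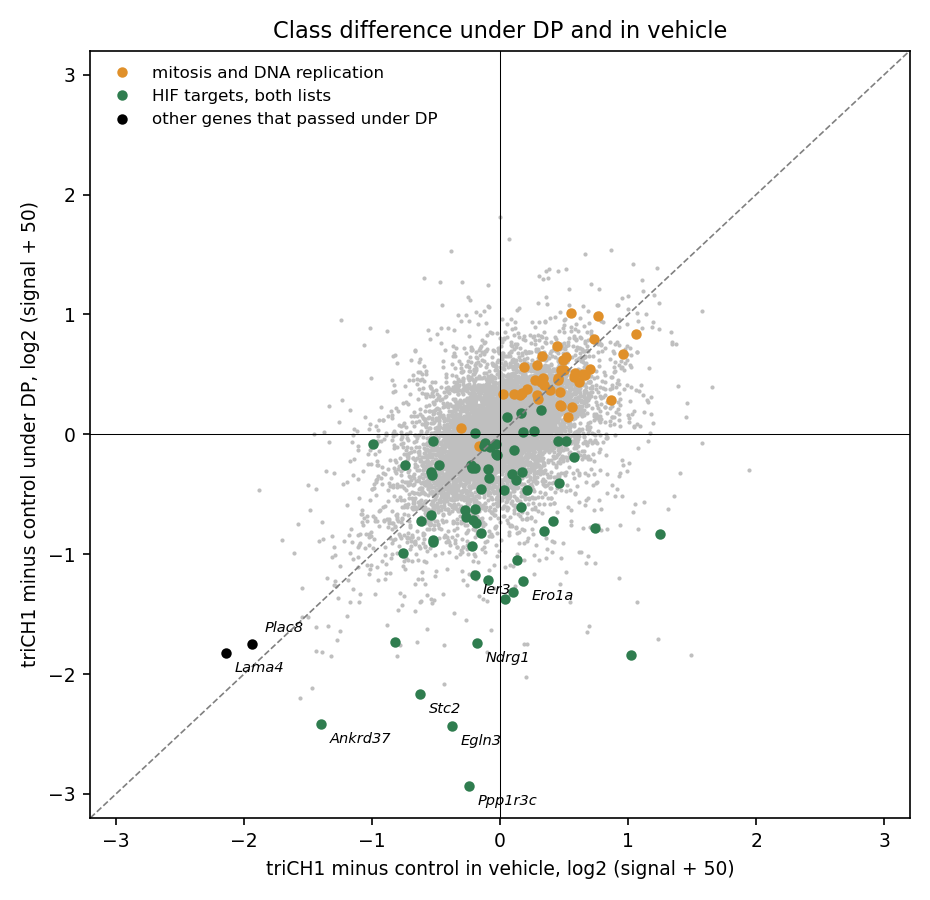
Each point is a gene, with the class difference (triCH1 minus control, log2 of signal + 50) in vehicle on the x axis and under DP on the y axis, and the dashed line marks equal values. Egln3, Ppp1r3c, Stc2, Ndrg1, Ero1a, Ankrd37 and Ier3 lie well below the line, Lama4 and Plac8 lie near it, and genes of mitosis and DNA replication lie above 0 on both axes save a few.

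The factors that carry the response had no class difference in RNA level that passed. Hif1a, the oxygen-regulated subunit, had DP signals of 6072 and 5958 in the controls and 7386 and 6400 in the triCH1 lines. Its difference was 0.19 (95% interval -0.14 to 0.53) and -0.05 as the mean of all its probe sets. Arnt, its partner, had 790 and 791 against 575 and 812 (-0.20, interval -0.71 to 0.32). Crebbp and Ep300, given above, had differences of -0.10 (interval -0.57 to 0.37) and 0.42 (interval -0.60 to 1.44). Within each class the lower Crebbp signal was that of the line with conditional CBP. The lower Ep300 signal was that of the line with conditional p300. The sign of the Crebbp difference turned with the probe sets averaged and with lines left out, that of Ep300 with lines left out. Cited2, which competes with HIF for CH1, had 5826 and 6336 against 6048 and 4254 (-0.26, adjusted p = 0.713), and its other probe set gave -0.68. Of 15 tested HIF subunits and regulators, Egln3 alone passed, 4 lay below both controls and 2 above both, and of 18 coactivators 0 passed, 1 lay below and 4 above. Over all genes 17.6% lay below both and 22.3% above, close to the share of coactivators above.

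Genes of iron handling had no class difference that passed. Tfrc, the transferrin receptor whose RNA is kept stable when iron is short, had 4239 and 4358 in the controls and 5015 and 3916 in the triCH1 lines. Its difference was 0.04 with an interval of -0.35 to 0.44, and it turned negative as the mean of all probe sets (-0.40). Aco1, the iron regulatory protein, had 2961 and 3129 against 3851 and 3871 (0.34, adjusted p = 0.584). Of 16 genes of iron and heme handling 0 passed, 1 lay below both controls and 3 above both, the latter near the 22.3% of all genes above both.

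Metallothioneins, small proteins that bind zinc and other metals, had lower values in the triCH1 lines without passing. Mt1 had 17242 and 18108 in the controls and 8851 and 11074 in the triCH1 lines, or 56.4% of the control level (-0.83, SE 0.137, adjusted p = 0.0964). Mt2 had 8849 and 8604 against 3572 and 5591 (-0.96, adjusted p = 0.213). In vehicle Mt1 had 2686 and 2396 against 3328 and 2781 and Mt2 991 and 1509 against 1786 and 1413, so there the triCH1 lines were not below. Of 11 genes of metallothioneins and zinc transport, 5 lay below both controls under DP and 2 in vehicle (17.6% and 18.4% of all genes), and 1 and 4 above (22.3% and 19.6%), with medians of -0.24 and 0.21. Of the 5, Mt3 passed the filter only through the controls, with 280 and 326 against 113 and 17.8.

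The 2 genes that passed outside the HIF lists were low in the triCH1 lines in both conditions. Lama4, a laminin chain of basement membranes, had DP signals of 1061 and 1186 in the controls and 295 and 268 in the triCH1 lines (probe set 1424807_at, chromosome 10). The difference was -1.82 (SE 0.215, adjusted p = 0.0306), or 3.54-fold. Its vehicle signals were 781 and 986 against 352 and 60.1 (-2.14, adjusted p = 0.592). Plac8, a small cysteine-rich protein, had 2078 and 2162 against 684 and 515 under DP (probe set 1451335_at, chromosome 5; -1.75, SE 0.209, adjusted p = 0.0306), or 3.37-fold. Its vehicle signals were 1809 and 1937 against 619 and 327 (-1.94, adjusted p = 0.289).

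No other matrix gene passed. Of 22 matrix proteins and proteases, 8 lay below both controls under DP and 9 in vehicle (17.6% and 18.4% of all genes), and 2 and 1 above (22.3% and 19.6%), with medians of -0.14 and -0.22. The 2 above were Postn, an adhesion protein (0.32, adjusted p = 0.568), and Dcn, a small proteoglycan (1.02, adjusted p = 0.567), which passed the filter only through the triCH1 arrays, with 97.6 and 181 against 235 and 443. Mfap5, a microfibril protein, had 2897 and 2618 against 1140 and 900 under DP (-1.40, adjusted p = 0.0656) and a difference of -1.17 in vehicle. Fbln5, which helps assemble elastic fibres, had 8497 and 10739 against 4352 and 5342 (-0.98, adjusted p = 0.104) and -0.77 in vehicle. Thbs2 (-1.40 and -1.10 under DP and in vehicle), Tnc (-0.72 and -0.80) and the surface glycoprotein gene Thy1 (-0.83 and -1.03) had values under 0 in both conditions. Other probe sets gave smaller gaps under DP, of -0.75 and -0.80 for Thbs2, -0.24 for Tnc and -1.11 for Mfap5. Of 18 collagen chains, 9 lay below both controls under DP and 10 in vehicle (17.6% and 18.4% of all genes), and 0 above in either, with medians of -0.28 and -0.36. Col11a1 had 4466 and 3603 against 2468 and 2422 (-0.70, adjusted p = 0.311). Col2a1, a cartilage collagen, had 1663 and 1032 against 403 and 445 (-1.52, adjusted p = 0.101). The summed fibroblast, cartilage, skeletal muscle, epithelial and endothelial markers given above were lower in both triCH1 lines too. Single fibroblast markers, Dcn and Twist1, lay above both controls. Their part in the result was not tested.

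On the higher side no gene passed, and the 10 genes with the smallest p were Ect2, Ezr, Cotl1, Csf1, Smc4, Zfp991, Tedc1, Zfp219, Ncapg2 and Bub1b. Several act in cell division. Ect2, an exchange factor of cytokinesis, had 1076 and 985 in the controls and 2197 and 2263 in the triCH1 lines (1.08, SE 0.185, adjusted p = 0.104). The condensin subunit genes Smc4 and Ncapg2 had 7042 and 6249 against 10844 and 11240 (0.73, adjusted p = 0.118) and 990 and 720 against 1706 and 1812 (1.02, adjusted p = 0.187). Ezr, which links membrane to actin, had 924 and 1245 against 2435 and 2503 (1.17, adjusted p = 0.104), and Csf1, the macrophage growth factor, 4051 and 4465 against 7586 and 7337 (0.80, adjusted p = 0.118). Their vehicle differences were 0.91 for Ect2, 0.60 for Smc4, 1.07 for Ncapg2, 1.21 for Ezr and 0.57 for Csf1. Under DP other probe sets gave 0.22 for Ezr and -0.64 for Zfp991 (1.21 with the one used). Those of Cotl1 gave 0.24 to 1.22 (1.42 with the one used) and those of Csf1 0.28 to 0.75. For Smc4 they gave 0.47 and 0.61, and for Bub1b 0.87. Tedc1 and Zfp219 had low signals, of 253 and 201 against 603 and 630 and of 105 and 121 against 478 and 431, with vehicle differences of -0.30 and 0.07. Under DP Zfp219 reached 200 only in the triCH1 lines and so passed the filter only through them, which fixed its direction.

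Genes of the cell cycle lay higher in the triCH1 lines in both conditions, with 0 passing. Of 21 mitosis genes, 17 lay above both controls under DP and 16 in vehicle, with medians of 0.51 in each. Of 20 genes of DNA replication, 17 and 15 did so, with medians of 0.35 and 0.33, against 22.3% and 19.6% of all genes. The spindle checkpoint kinase gene Bub1b had 650 and 844 against 1392 and 1657 (0.99, adjusted p = 0.213), and Ccnb2, a mitotic cyclin, 1846 and 2402 against 3859 and 3722 (0.83, adjusted p = 0.229). Cdt1, which licenses replication origins, had 2005 and 2003 against 2733 and 3537 (0.62, adjusted p = 0.437). The list of cell cycle inhibitors and D cyclins had 6 of 13 below both controls under DP and 6 in vehicle, against 17.6% and 18.4% of all genes. In it Cdkn1a, the inhibitor p21, had 12039 and 13454 against 8734 and 7925 (-0.61, adjusted p = 0.203), and Cdkn2b, the inhibitor p15, had 5344 and 4250 against 2992 and 2402 (-0.82, adjusted p = 0.26). Their vehicle differences were -0.75 and -1.01.

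**Figure D5:**
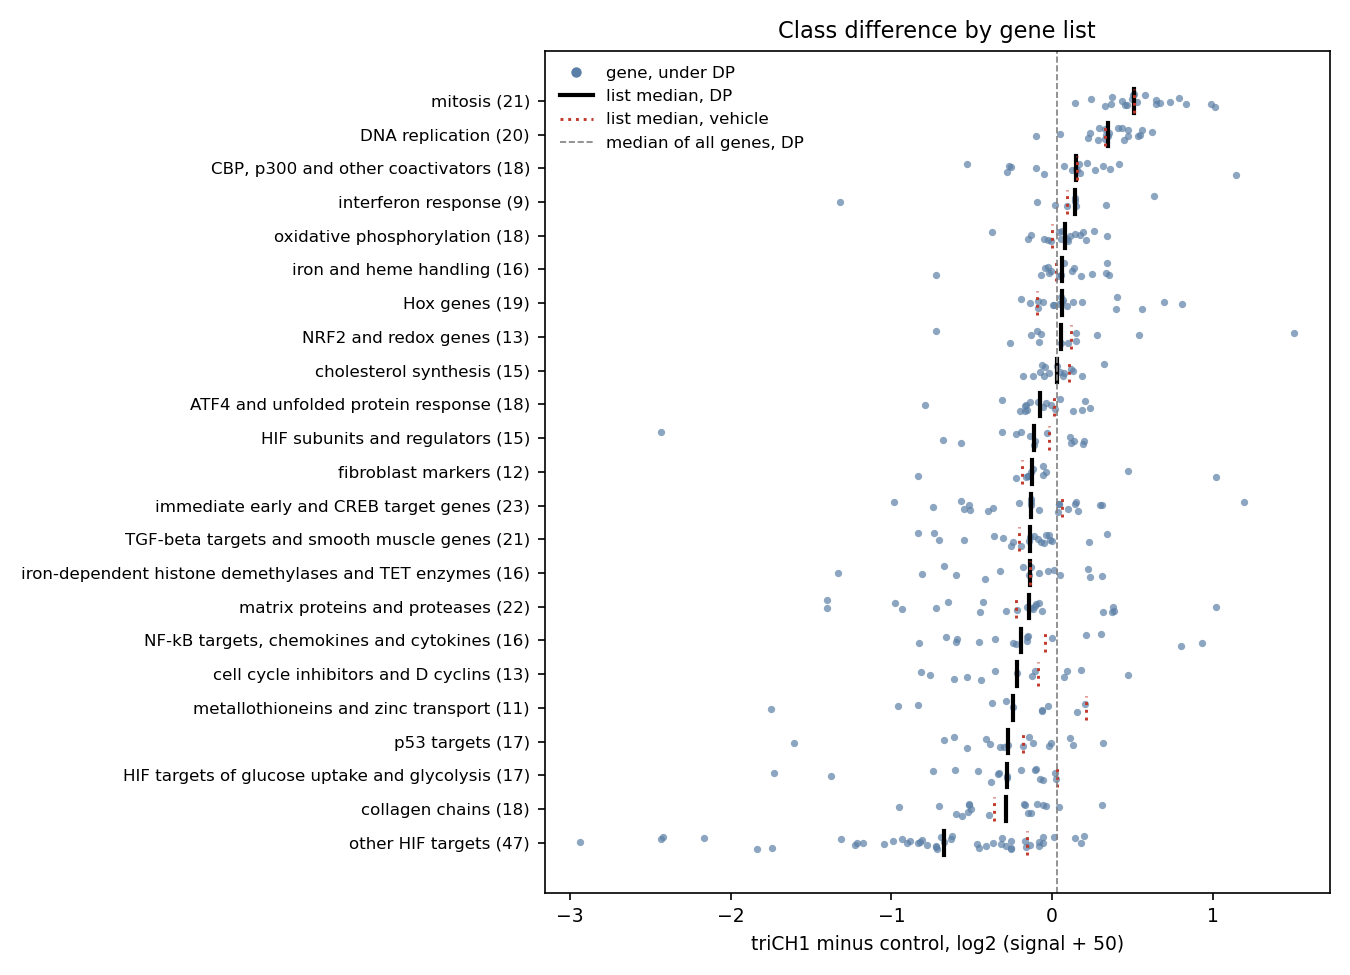
Class difference under DP (triCH1 minus control, log2 of signal + 50) of each tested gene by list, for the lists with at least 9 tested genes (number in brackets); black bars are list medians under DP, red dotted bars those in vehicle, and the dashed line is the median of all genes. The HIF targets outside glycolysis have the lowest median (-0.67, against -0.15 in vehicle), and mitosis and DNA replication the highest (0.51 and 0.35).

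In the other lists 0 members passed, and their counts stand against 17.6% of all genes below both controls and 22.3% above both under DP, and 18.4% and 19.6% in vehicle. Of 17 p53 targets, 7 (41.2%) lay below both controls under DP and 9 (52.9%) in vehicle, with medians of -0.27 and -0.18, among them Pmaip1, a promoter of cell death, with 1893 and 1147 against 545 and 373 (-1.60, adjusted p = 0.104). Of 23 immediate early and CREB target genes, 7 lay below and 3 above under DP, with Egr3 at 398 and 471 against 1366 and 816 (1.20, adjusted p = 0.225) and Junb at 975 and 1232 against 408 and 683 (-0.98, adjusted p = 0.353). Of 16 iron-dependent histone demethylases and TET enzymes, 5 lay below and 1 above. Kdm6b, which removes a repressive mark of histone H3, had 1433 and 1280 against 872 and 885 (-0.60, adjusted p = 0.459), while its other probe set gave 0.13. Of 16 NF-kB targets and cytokines 7 (43.8%) lay below and 2 above, of 18 genes of the ATF4 and unfolded protein response 4 and 1, and of 21 TGF-beta and smooth muscle genes 8 (38.1%) and 0. Oxidative phosphorylation had 2 of 18 below and 7 above, redox genes 1 of 13 and 4, Hox genes 0 of 19 and 3, cholesterol synthesis 0 of 15 and 1, and interferon response genes 1 of 9 and 1.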

How the data were processed

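The deposited values are the intensity of each probe set on an Affymetrix mouse array, scaled by the authors to a 2% trimmed mean of 500 on each array with the statistical algorithm, per the labels' protocols. They were analysed as log2(signal + 50). The arrays hold 45101 probe sets, of which 34945 have 1 gene symbol in the platform's annotation and 932 several. A further 64 are controls and 9160 have no symbol. Probe sets with a signal of at least 200 on at least 2 of the 4 DP arrays were kept, and a gene with several such probe sets (3903 genes) was represented by that of highest mean signal. Chromosomes came from RefSeq, and 300 genes on X and Y were left out, which left 9315 genes.

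The 2 class means were estimated in limma 3.58.1 (R 4.3.3) using empirical Bayes variances that follow a trend on signal (2 residual and 6.61 prior degrees of freedom) and Benjamini-Hochberg adjustment over all genes. The same fit was made on the vehicle arrays. The difference between conditions used 8 arrays and a term for the line. In simulated data of 9315 genes with 200 changed, the DP fit recovered 7.46%, 53.7% and 93.9% of true log2 differences of 0.5, 1 and 2, with 6 false calls. The fit of the difference between conditions recovered 1.49%, 31.3% and 86.4%, with 9 false calls. The simulated noise was normal and independent between genes and arrays, with each gene's spread taken from the fit to these data. It held no effect of genotype, sex or array series, so the recovery applies to that setting only.

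The members and gene lists were chosen with earlier results of these data known. Genes were named by a rule: the 15 largest differences each way among those that passed with no overlap, filled to 10 by smallest p, up to 4 per list by smallest p, and a set of HIF targets and regulators. Adm, Aldoa, Arnt, Bhlhe40, Ccng2, Egln1, Hilpda, Insig2, Lox, Mif, P4ha1, P4ha2, Pgam1, Pkm, Plod2, Selenbp1, Stc1, Tfrc, Tpi1, Wsb1 and Zfp395, the matrix gene Postn, the exporter gene Slc16a3, and Xist and Eif2s3y, were named after their values were seen. No list was tested as a set. In all, 17 alternatives were run. Figures were drawn with matplotlib 3.10.9 in Python 3.11.15.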

Additional observations from a re-analysis of the deposited data

Results flagged for a closer look

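For 3 named genes both triCH1 lines changed with DP in the direction opposite to both control lines, as 7.60% of all genes tested did. The DP change of Arnt in the triCH1 lines minus that in the controls was -0.36 on the log2 scale, that of Tedc1 was 1.57 and that of Zfp219 was 1.56. The opposite directions were not tested as such, and none of the 3 passed in the fit of the difference between conditions. By the barcode digits, the DP and vehicle arrays of triCH1flox1 were of different series. In that line DP and series cannot be told apart. Arnt is the partner of HIF alpha, Tedc1 a centriole protein and Zfp219 a zinc finger protein. Zfp219 passed the filter only through the triCH1 DP arrays (478 and 431, against 105 and 121), so its high value there was selected.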

How the results depend on the processing

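Precision is limited by 2 lines a class, each on 1 array, and a low signal such as that of Ppp1r3c in the triCH1 lines is near background. Against 9 lower genes under DP there were 4 without a filter, 1 with the mean of all probe sets, 0 without a variance trend, 14 with robust variances, 25 with all 16 arrays, 32 with these and the line as a random block, and 17 with a term for the array series (7, 7 and 6 of the 9 were among the last 3). Leaving out 1 line gave 1 to 3, with 0 to 3 higher. Higher genes numbered 5, 9 and 2 in the 3 fits of all arrays and 1 with X and Y genes kept. In vehicle 3, 3 and 3 were lower in those fits and 1 was lower and 1 higher with X and Y kept. Leaving out flox2 there leaves as the only control the flox1 vehicle array, which stood apart. For the difference between conditions 1 gene passed with a pseudocount of 200, 2, 3 and 1 in the fits of all arrays, and 1 to 8 without 1 line. The number of a line marks which gene is conditional, and the labels do not say whether same-numbered lines share a litter. With it as a replicate block 189 genes were lower and 92 higher under DP, with all 9 and 27 HIF targets among them, and 36 and 10 in vehicle. The deviations of same-numbered lines correlated at 0.256 under DP and 0.157 in vehicle over genes. With no replicate block the fit of the difference between conditions also called 0.

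The median of the HIF targets outside glycolysis was -0.67, with -0.57 at a pseudocount of 200, -0.56 with a term for the array series, -0.62 with the mean of all probe sets and -0.66 to -0.56 without 1 line. That of glucose uptake and glycolysis was -0.40 to -0.18 without 1 line. The 9 genes stayed lower under all 17 alternatives, and Egln3 passed in 16 of them (-2.62 to -2.22), Ankrd37 in 13, Ndrg1 in 11, Ero1a, Ier3 and Plac8 in 10, Ppp1r3c in 9, Stc2 in 8 and Lama4 in 7. Among the named genes, signs turned for values near 0 or with a wide spread. Without 1 line, Pdk1 ran from -0.22 to 0.11, Ldha from -0.20 to 0.0097, Pgam1 from -0.046 to 0.080, Tpi1 from -0.20 to 0.058 and Egln1 from -0.31 to 0.040. Arnt ran from -0.43 to 0.037, Crebbp from -0.27 to 0.064, Ep300 from -0.22 to 1.06 and Tfrc from -0.13 to 0.22. With the mean of all probe sets Hif1a (-0.052), Crebbp (0.092) and Tfrc (-0.40) turned, and with the array series Crebbp (0.053) and Tfrc (-0.068). The causes were not tested.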

Other observations

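The 9 genes that passed under DP were also measured in the same lines after trichostatin A, a histone deacetylase inhibitor, with and without DP. With both agents all 9 had both triCH1 arrays below both controls, and their class differences ran from -1.78 to -0.46 with a median of -0.93, while 21.2% of all genes tested did so. With trichostatin A alone 3 of the 9 did so (16.4% of all genes; differences -1.43 to 0.43, median -0.10), and in vehicle 6 (18.4%; -2.14 to 0.18, median -0.37). The genes were chosen for low values under DP, so the DP values are no comparison. Stc2 had signals under 200 on every array of these 3 treatments, from 15.6 to 164, and Ppp1r3c in vehicle from 9 to 191, so their differences there are rough. The lowest vehicle value, that of Lama4, rests on a signal of 60.1 in triCH1flox2. These values were not tested.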
